A study of Mus musculus with 8 samples.

Results

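The 9 genes described here are listed as genes of the last stretch of the mouse proximal tubule. They are Kap, Slc7a13, Slc22a7, Napsa, Slco1a1, Akr1c21, Acsm3, Cyp7b1 and Cyp2e1. They were chosen by name out of the 25240 gene symbols of the deposited count table, because the Tomato-positive and Tomato-negative libraries of these same data had been seen to differ strongly in them. Their difference between the Tomato groups is therefore given as a description, with no test, whereas the difference between the title prefixes was not used in the choice and is tested. The series holds 8 libraries of kidney cells, 4 Tomato-negative and 4 Tomato-positive. All came from p16-tdTomato mice, whose chronic kidney disease was brought on by food rich in adenine, and no library came from healthy kidney. The name p16-tdTomato combines a red fluorescent protein with p16, which halts the cell cycle and is used as a mark of senescence. The construction of the reporter, the sorting of the cells and the age and strain of the mice were not given in the sources used here. Titles carry 4 identifiers (CKD523_2, CKD523_3, CKD627_1, CKD627_2), and each names a pair of libraries, 1 negative and 1 positive. The prefixes CKD523 and CKD627 have no stated meaning, and the labels do not say that identifiers are separate animals, so the spread behind the p-values is that between these samples and may be technical.

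The proximal tubule takes back most of what the glomerulus filters, and its cells change along its length. The early part (segments S1 and S2) carries the main glucose, phosphate and protein uptake, while the late part (segment S3), which runs into the outer medulla, carries its own amino acid and organic anion transporters and much of the steroid and drug metabolism. In the mouse several S3 genes follow androgens and are more active in males, and S3 is known as a site of damage in several forms of kidney injury.

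Total counts ranged from 13474439 to 19886202 per library, and levels are given as CPM, that is counts scaled to a common library total with TMM factors. The transgene tdTomato rose in the positive libraries by 5.05 ± 0.25 on the log2 scale (SE, edgeR without pairing). All libraries are labelled proximal tubular epithelial cell, and the 19 early proximal genes listed for comparison summed to between 2940 and 18196 CPM, but markers of other tubule segments were also present. The 4 thick ascending limb markers summed to 3872 to 13853 CPM in the negative libraries and 1662 to 6450 CPM in the positive ones, lower in the positive library of 4 of 4 pairs. The 3 distal convoluted tubule markers summed to 759 to 1207 CPM and 124 to 422 CPM, and the 4 intercalated cell markers to 122 to 1309 CPM and 90.2 to 405 CPM, both also lower in 4 of 4 pairs. By contrast the 5 principal cell markers summed to 160 to 1996 CPM in the negative and 756 to 4476 CPM in the positive libraries, higher in 4 of 4 pairs. The 4 macrophage markers summed to 14.7 to 44.0 CPM, lower in the positive library of 4 of 4 pairs, but singly this held only for Csf1r (mean 27.4 CPM in the negative and 10.9 CPM in the positive libraries). C1qa was higher in 3 of 4 pairs and Ptprc in 2 of 4, and Adgre1 was at 0 counts in 3 positive libraries. Endothelial markers (5 genes, 38.0 to 514 CPM), podocyte markers (3 genes, 31.9 to 448 CPM) and fibroblast markers (3 genes, 28.6 to 79.0 CPM) were higher in 2, 2 and 1 of the 4 pairs. The part of these other cells in the differences below was not tested, and in bulk RNA fewer cells of a type and less RNA per cell cannot be told apart.

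All 9 genes are protein-coding and have a single entry in GENCODE M21 (mm10), and 5 of 9 had a promoter entry in the RefSeq table of build GRCm38.p6. The 250 bases before the RefSeq start were searched on both strands for the HNF4 core CAAAGTC and the TATA box TATAAA, as HNF4 is a known regulator of proximal tubule genes. Among 32851 windows of that length, 3.84% and 12.4% held these letters. The windows of Acsm3 and Akr1c21 are shown because Acsm3 followed Kap most closely over the libraries and Akr1c21 was the only one of the 9 whose libraries separated fully by prefix. Capitals mark a match, and a match describes letters, not a bound site.
Akr1c21, 250 bases, chr13:4573825-4574074, plus strand: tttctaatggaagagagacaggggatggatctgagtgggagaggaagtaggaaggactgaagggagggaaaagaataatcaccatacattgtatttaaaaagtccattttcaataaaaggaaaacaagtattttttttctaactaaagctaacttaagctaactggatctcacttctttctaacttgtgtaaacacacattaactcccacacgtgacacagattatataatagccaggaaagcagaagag
Acsm3, 250 bases, chr7:119760673-119760922, plus strand: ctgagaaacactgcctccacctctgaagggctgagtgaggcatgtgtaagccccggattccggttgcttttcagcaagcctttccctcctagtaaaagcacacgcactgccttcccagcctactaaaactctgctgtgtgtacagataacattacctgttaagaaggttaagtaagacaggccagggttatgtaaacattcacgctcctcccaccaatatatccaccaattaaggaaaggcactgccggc
Neither window held a match. For Kap and Cyp2e1, whose GENCODE genes reach 95 and 80 bases into the window, only the 30 bases around the match are shown, because both hold TATAAA at the same distance, 31 bases before the start.
Kap, 30 bases, chr6:133853681-133853710, minus strand: gagtacaggatgTATAAAagcccaggagga
Cyp2e1, 30 bases, chr7:140763776-140763805, plus strand: tcaacgacacgtTATAAAatccttgtttct
Slco1a1 held the TATA letters on the opposite strand, at 209 and 99 bases before its start. The HNF4 core was found in 0 of the 5 windows, which says only that these letters are not there.

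Of the 9 genes, 8 were lower and 1, Cyp7b1, was higher in the Tomato-positive library of all 4 pairs. Among all 14284 genes tested, 17.6% were lower and 17.9% were higher in all 4 pairs. For 6 of the 9 genes (Kap, Slc7a13, Slc22a7, Napsa, Slco1a1 and Acsm3) every positive library lay below every negative one, while Akr1c21, Cyp2e1 and Cyp7b1 overlapped between the groups. Over all genes tested, 13.2% had groups that did not overlap, in either direction, and nothing is read from the genes' share since this contrast chose them. Values below are CPM in the order CKD523_2, CKD523_3, CKD627_1 and CKD627_2, differences are log2 CPM (prior count of 2) of the positive minus the negative library, and folds are 2 to the power of the mean difference of the 4 pairs.

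**Figure D1:**
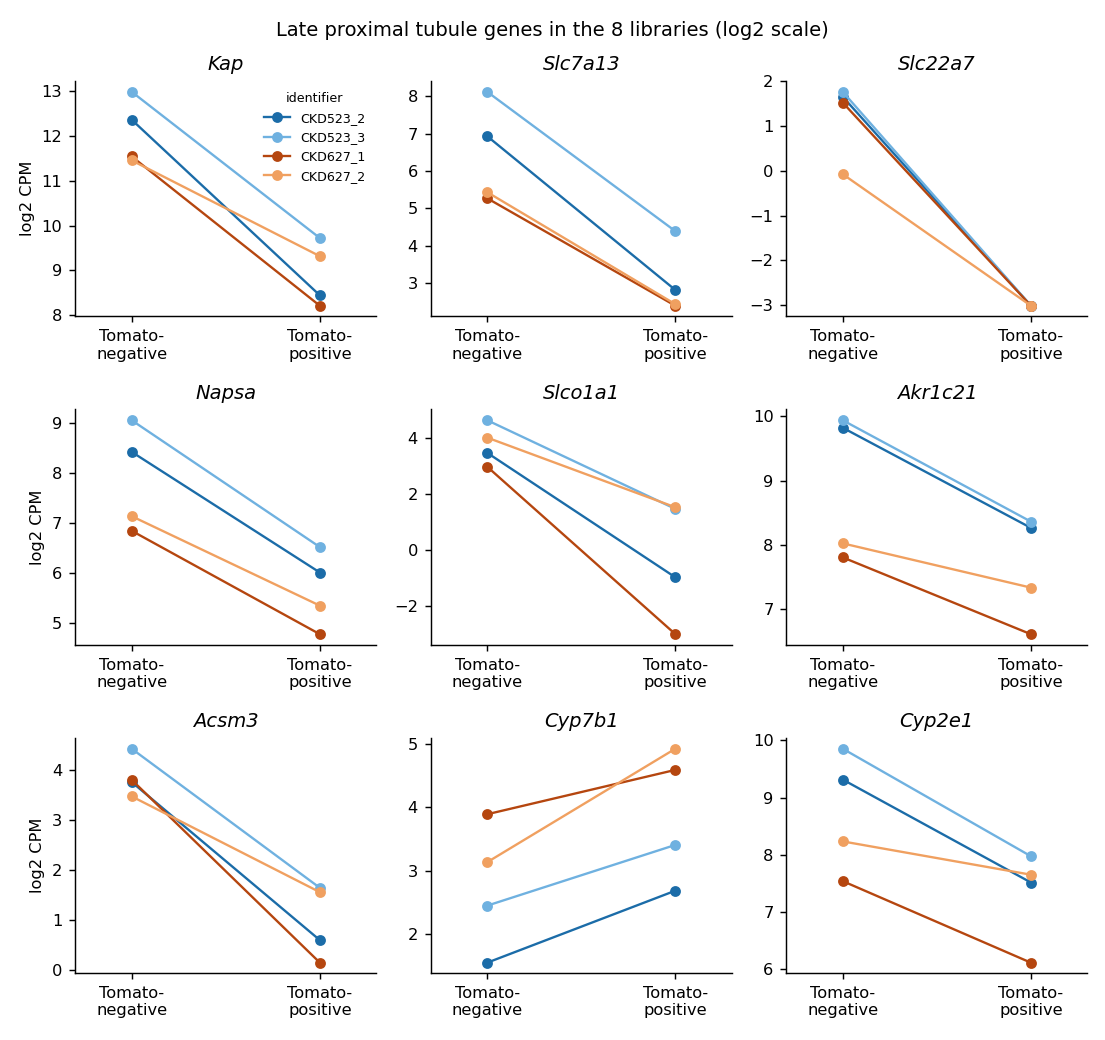
Level of each of the 9 genes in the 8 libraries, as log2 CPM with a prior count of 2 (each panel has its own vertical scale); lines join the negative and the positive library of one identifier. Every line slopes down except those of Cyp7b1, which slope up, and the lowest points of Slc22a7 and Slco1a1 stand for 0 counts.

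Kap (kidney androgen-regulated protein, an abundant androgen-responsive product of the mouse proximal tubule; chr6:133849851-133853762, minus strand) was the most abundant of the 9. Its negative libraries held 5286, 8148, 2990 and 2812 CPM, 4809 ± 2494 (SD, n = 4), and its positive libraries 346, 842, 295 and 636 CPM, 530 ± 257. Even the lowest negative library was far above the highest positive one. The differences of the pairs were -3.93, -3.27, -3.34 and -2.14, a mean of -3.17 (SD 0.75) or 9.02-fold, so that Kap remained readily measured in the positive cells, at 4507 to 14632 counts.

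Among the transporters, Slc7a13 (an amino acid transporter of the S3 brush border that carries aspartate, glutamate and cystine and pairs with Slc3a1; chr4:19818725-19842218, plus strand) held 122, 279, 38.5 and 43.2 CPM in the negative and 6.92, 20.8, 5.14 and 5.29 CPM in the positive libraries. The groups did not overlap, and the differences of -4.12, -3.73, -2.88 and -3.00 averaged -3.43 (SD 0.59), or 10.8-fold. Its partner Slc3a1, the heavy chain also used by other amino acid transporters, did not follow it. Slc3a1 stood at 327, 370, 50.3 and 88.0 CPM in the negative and at 206, 195, 68.4 and 118 CPM in the positive libraries, lower in the positive library of both CKD523 pairs and higher in that of both CKD627 pairs. Its difference did not pass the test without pairing (-0.51, adjusted p = 0.707) or with the identifier as a block (-0.19 ± 0.25, adjusted p = 0.685, edgeR's quasi-likelihood test).

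Slc22a7 (an organic anion transporter; chr17:46432183-46438457, minus strand) was near zero throughout, and its counts say more than its CPM. The negative libraries held 40, 51, 47 and 13 counts, 151 together, and the 4 positive libraries held 0 counts each. With a floor of 3 counts over the positive group, which covers counting error in that group only, its pooled level was 53.5-fold lower in the positive cells. The spread of the negative libraries, 13 to 51 counts, does not enter this value, so it is no firm bound. The mean log2 difference of -4.23 rests on the prior count and is not a bound.

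Slco1a1 (an organic anion transporter of the apical membrane, more active in male mice; chr6:141907282-141946962, minus strand) was also scarce. It had 146, 388, 133 and 254 counts in the negative and 5, 46, 0 and 57 counts in the positive libraries, that is 11.0, 24.9, 7.79 and 16.1 CPM against 0.384, 2.65, 0 and 2.76 CPM. The groups did not overlap, yet the differences spread widely (-4.46, -3.17, -6.00 and -2.49; mean -4.03, SD 1.54), the widest SD of the 9, with the positive library of CKD627_1 at 0 counts. Pooled over the libraries of a group its level was 9.07-fold lower in the positive cells.

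Napsa (an aspartic protease of lysosomes, made in the lung and the proximal tubule; chr7:44572380-44586862, plus strand) held 344, 534, 115 and 141 CPM in the negative and 64.2, 91.4, 27.1 and 40.4 CPM in the positive libraries. The groups came close but did not overlap, with 115 CPM in the lowest negative and 91.4 CPM in the highest positive library. Its differences were the most even of the 9, at -2.42, -2.54, -2.08 and -1.79 (mean -2.21, SD 0.34, or 4.62-fold).

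Among the enzymes, Acsm3 (a mitochondrial synthetase that joins medium-chain fatty acids to coenzyme A; chr7:119760923-119787513, plus strand) held 13.5, 21.4, 13.9 and 11.0 CPM in the negative and 1.38, 2.99, 0.978 and 2.81 CPM in the positive libraries, the latter from 18, 52, 16 and 58 counts. The groups were far apart, and the differences of -3.17, -2.79, -3.67 and -1.92 averaged -2.89 (SD 0.74), or 7.40-fold.

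Akr1c21 (a hydroxysteroid dehydrogenase that acts on sex steroids; chr13:4574075-4586541, plus strand) and Cyp2e1 (a cytochrome P450 that oxidises ethanol and other small molecules; chr7:140763739-140774987, plus strand) differed less. Akr1c21 held 904, 981, 224 and 260 CPM in the negative and 307, 329, 97.5 and 161 CPM in the positive libraries, so that the positive libraries of CKD523 lay above the negative ones of CKD627. Within pairs it was lower by -1.56, -1.58, -1.20 and -0.69 (mean -1.25, SD 0.42, or 2.39-fold). Cyp2e1 held 637, 927, 185 and 300 CPM against 182, 251, 68.7 and 200 CPM, overlapping also within CKD627 (185 CPM in a negative and 200 CPM in a positive library), with differences of -1.81, -1.89, -1.43 and -0.58 (mean -1.43, SD 0.60, or 2.69-fold).

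Cyp7b1 (a cytochrome P450 that hydroxylates oxysterols and steroids; chr3:18071950-18243338, minus strand) went the other way. It held 2.80, 5.33, 14.7 and 8.65 CPM in the negative and 6.30, 10.5, 24.0 and 30.3 CPM in the positive libraries, from 37 to 251 counts and from 82 to 624 counts. The groups overlapped over all libraries but not within either prefix, and within pairs Cyp7b1 was higher by 1.14, 0.96, 0.70 and 1.79 (mean 1.15, SD 0.47, or 2.22-fold). The label of a late proximal gene thus covers 8 genes that were lower and 1 that was higher. For Cyp7b1 the label comes from the list alone. Its values here, also those by prefix and by profile below, do not bear it out.

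Per kilobase of exon, the only scale on which levels of different genes are compared here, the order of the mean levels in the negative libraries was Kap (6802 ± 3528 CPM per kilobase, SD, n = 4), Akr1c21 (394 ± 270), Cyp2e1 (237 ± 156), Napsa (107 ± 73.7), Slc7a13 (56.3 ± 52.3), Cyp7b1 (3.63 ± 2.38), Acsm3 (3.03 ± 0.915), Slco1a1 (2.84 ± 1.42) and Slc22a7 (1.18 ± 0.531). Most neighbours in that order lay within each other's spread over the libraries. The steps from Kap to Akr1c21 and from Slc7a13 to Cyp7b1 separated all negative libraries of both genes. Within each single negative library the order from Kap to Slc7a13 held, and Slco1a1 lay above Slc22a7. The order of Cyp7b1, Acsm3 and Slco1a1 varied between the libraries. In the positive libraries Kap still led (750 ± 363), followed by Akr1c21 (149 ± 74.7), Cyp2e1 (81.3 ± 35.6), Napsa (21.0 ± 10.6), Cyp7b1 (8.20 ± 5.19), Slc7a13 (4.46 ± 3.54), Acsm3 (0.414 ± 0.205), Slco1a1 (0.275 ± 0.277) and Slc22a7 (0). Cyp7b1 and Slc7a13 thus changed places in the mean, but singly only in the CKD627 libraries. There Cyp7b1 held 11.1 and 14.0 and Slc7a13 2.40 and 2.47 CPM per kilobase. In the positive CKD523 libraries Slc7a13 still led, with 3.23 and 9.73 against 2.91 and 4.84.

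More genes were called around these when the fit allowed for the identifier as a block, or for the prefix alone. Without pairing, 0.231% of the 14284 genes were called lower and 0.364% higher at an adjusted p of 0.05, and with the identifier as a block 3.81% were called lower and 3.82% higher. A list of 24 other late proximal genes, which like all lists here was made with results of these data known, had 23 genes tested. Without pairing 0 of 23 were called by edgeR (13 had an unadjusted p under 0.05, and DESeq2 called 8 and limma-voom 0), and with the block 14 were called lower and 0 higher. The median difference with the block was -1.13, against 0.01 over all genes tested, and 15 of the 23 were lower in all 4 pairs. The 14 calls became 7 without pair CKD523_2, 5 without CKD523_3, 16 without CKD627_1 and 11 without CKD627_2. With the prefix as a covariate in place of the block, 14 other late genes were also called, so the gain was not particular to the pairing.

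Among these other late genes, the transporter gene Slc22a19 fell by 3.65 ± 0.57 on the log2 scale with the block (SE; adjusted p = 0.00914, edgeR's quasi-likelihood test; 0.116 without pairing). It held 153, 392, 48 and 100 counts in the negative and 8, 32, 0 and 29 counts in the positive libraries. Ggt1, the brush border enzyme that cleaves glutathione, fell by 1.21 ± 0.18 (adjusted p = 0.00718; 0.126 without pairing). Angiotensinogen (Agt) fell by 1.31 ± 0.16 (adjusted p = 0.00296; 0.127 without pairing), and Mpv17l, which encodes a membrane protein, fell by 1.71 ± 0.24 (adjusted p = 0.00586; 0.138 without pairing). In the same positive libraries 4 of 4 thick ascending limb markers were lower in all pairs, as were 2 of 3 distal convoluted tubule markers (Trpm6 was higher in 3 of 4 pairs) and 3 of 4 intercalated cell markers (Slc4a1 was higher in 4 of 4), while 5 of 5 principal cell markers were higher in all pairs.

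Of the 19 early proximal genes, 0 were called without pairing by edgeR (3 had an unadjusted p under 0.05; DESeq2 called 2 and limma-voom 0), and with the block 3 were called lower and 0 higher, with a median of 0.01. The 3 called were Slc5a10, a sugar transporter (fell by 2.17 ± 0.23, adjusted p = 0.00223; 0.0701 without pairing), Slc22a6, the main organic anion transporter of the basolateral side (fell by 1.70 ± 0.22, adjusted p = 0.00473; 0.164 without pairing), and Slc22a12, the urate transporter (fell by 1.21 ± 0.21, adjusted p = 0.0129; 0.206 without pairing). Slc22a8, another organic anion transporter, did not pass either test (-0.78 ± 0.22, adjusted p = 0.0689 with the block). Of the 19, 4 were lower and 2 higher in all 4 pairs, and DESeq2 with the block called 4 lower and 1 higher. The 2 were Slc5a2 (0.70, adjusted p = 0.0810 in edgeR with the block) and Slc34a3 (0.60, adjusted p = 0.104). Both were named after their values were seen. The early calls became 3, 2, 4 and 3 when the pairs were left out in the same order. No test compared the late with the early list, so each is described by its own counts.

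**Figure D2:**
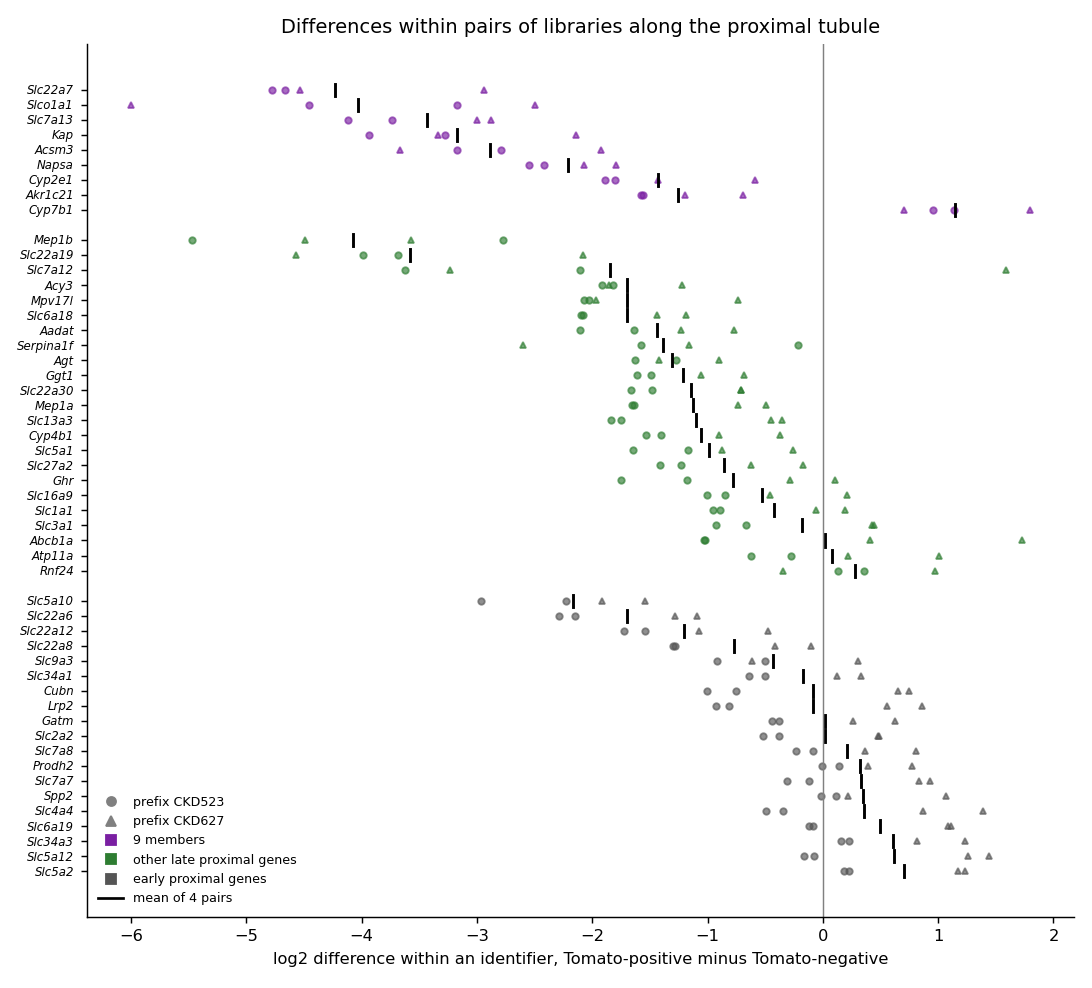
Difference in log2 CPM within each of the 4 identifiers, positive minus negative, for the 9 genes, 23 other late and 19 early proximal genes; the bar is the mean of 4 pairs. All of the 9 genes but Cyp7b1, and 15 of the 23 other late genes, lie left of zero in all 4 pairs, and many early genes lie left of zero for CKD523 and right of it for CKD627.

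The early genes were not level between the libraries. Their mean log2 CPM was 9.01, 8.88, 6.45 and 7.06 in the negative and 8.35, 8.26, 6.83 and 7.42 in the positive libraries, a difference of -0.66 and -0.62 in the CKD523 pairs and of 0.38 and 0.35 in the CKD627 pairs. Each of the 9 genes was therefore also expressed relative to this mean in the same library, a measure added after the data had been seen. On it, the difference between positive and negative libraries was -3.30 for Slc7a13 with an SD of 0.147 over the 4 pairs, against 0.59 for its plain CPM. Kap (-3.04, SD 0.57), Napsa (-2.07, SD 0.30), Akr1c21 (-1.12, SD 0.31) and Cyp2e1 (-1.29, SD 0.37) had smaller SDs than before as well. For Acsm3 (-2.75, SD 0.88), Slco1a1 (-3.89, SD 1.74) and Cyp7b1 (1.28, SD 0.66) the SD grew, and the value of Slc22a7 rests on the prior count. The direction in all 4 pairs was that of the plain levels for each of the 9 genes.

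**Figure D3:**
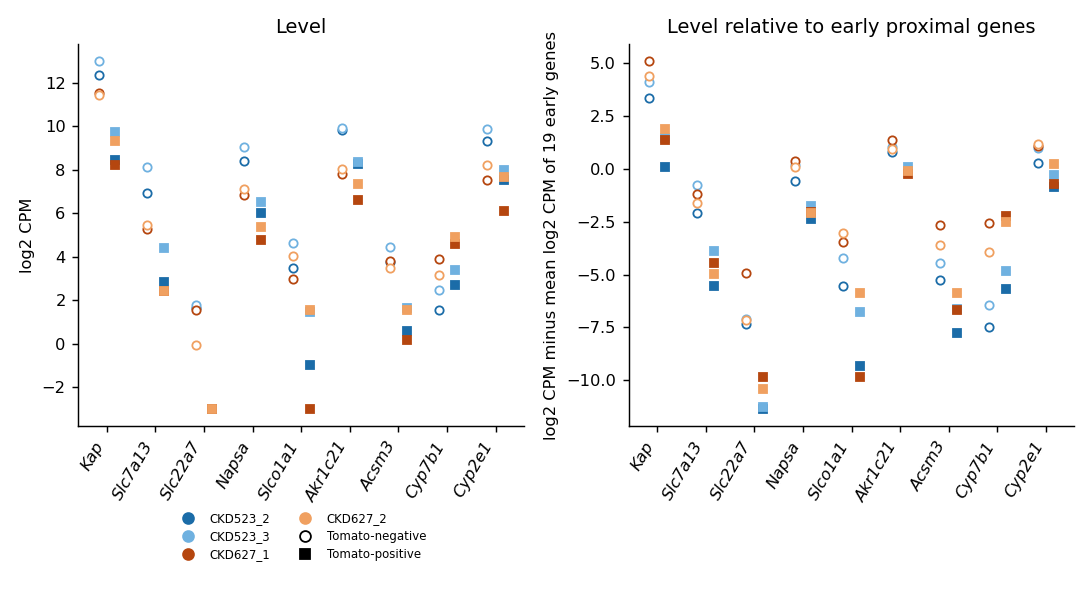
Left, log2 CPM of the 9 genes in each library; right, the same values minus the mean log2 CPM of the 19 early proximal genes in that library (open circles negative, filled squares positive). On the right the 4 pairs of Slc7a13 differ by -3.30 on average with an SD of 0.147.

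The prefix comparison asked whether the genes' level differed between the CKD523 and CKD627 identifiers, with the counts of both libraries of an identifier summed (2 identifiers per prefix, edgeR's quasi-likelihood test, 15398 genes). Over all genes 12.6% were called lower and 9.15% higher in CKD627. Of the 9 genes, 5 were called lower in CKD627, 1 was called higher and 3 did not pass. Akr1c21 fell by 1.81 ± 0.15 (SE; adjusted p = 3.96e-05) and was the only one of the 9 whose 8 libraries separated fully by prefix, at 307 to 981 CPM in CKD523 and 97.5 to 260 CPM in CKD627. Napsa fell by 1.74 ± 0.18 (adjusted p = 1.13e-04), Slc7a13 by 2.29 ± 0.29 (adjusted p = 3.40e-04), Kap by 1.18 ± 0.18 (adjusted p = 8.61e-04) and Cyp2e1 by 1.45 ± 0.26 (adjusted p = 0.00243).

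Cyp7b1 was again the exception and rose by 1.62 ± 0.28 in CKD627 (adjusted p = 0.00177). For the 3 scarce genes the difference did not pass, and their intervals are wide. Slc22a7 differed by -0.84 (95% bounds -2.57 and 0.89, adjusted p = 0.519), Slco1a1 by -0.64 (-1.59 and 0.31, adjusted p = 0.348) and Acsm3 by -0.51 (-1.15 and 0.13, adjusted p = 0.267). The value for Slco1a1 moved with single identifiers, to -1.11 without CKD523_2 (adjusted p = 0.00976), to -1.28 without CKD627_2 (adjusted p = 0.0370) and to 0.0753 without CKD523_3 (adjusted p = 0.954). Such a fit leaves 1 identifier in a prefix, which is assumed to vary like those of the other prefix, so these p-values are no firm calls.

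**Figure D4:**
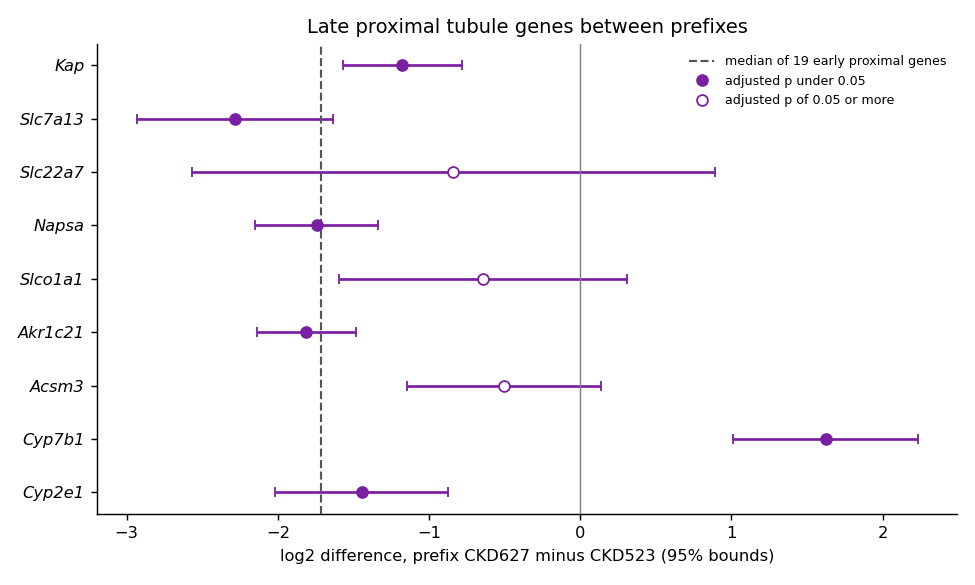
Difference in log2 level between prefixes, CKD627 minus CKD523, from summed counts of 2 identifiers per prefix, with 95% bounds; filled points passed an adjusted p of 0.05 and the dashed line is the median of the 19 early proximal genes (-1.71). The bounds of 5 genes lie below zero and those of Cyp7b1 above it, while the bounds of Slc22a7, Slco1a1 and Acsm3 cross zero.

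This prefix difference was shared by proximal genes at large. All 19 early genes were called lower in CKD627 (median -1.71), and of the 24 other late genes 22 were called lower and 1 higher (median -1.63, against 0.00 over all genes). The exception, the glucose transporter gene Slc5a1, was named after its values were seen and rose by 0.80 (adjusted p = 0.00177). Summed markers of other segments also differed between prefixes. In the negative libraries of CKD523 the thick ascending limb markers summed to 3872 and 4430 CPM and the principal cell markers to 160 and 243 CPM, and in those of CKD627 to 11745 and 13853 CPM and to 1996 and 1309 CPM. The early proximal genes summed to 18196 and 17522 CPM in the former and 2940 and 4438 CPM in the latter. The part of these cells in the prefix difference was not tested.

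Relative to the early mean, the prefixes differed by 0.02 for Slc7a13 in the negative and by 0.00 in the positive libraries. Napsa differed by 0.44 and -0.02, Akr1c21 by 0.22 and -0.16 and Cyp2e1 by 0.49 and 0.32. Kap stood higher in CKD627 on this scale, by 1.01 and 0.87, as did Acsm3, by 1.73 and 0.92, and Slco1a1, by 1.63 and 0.20. Cyp7b1 differed most, by 3.70 and 2.90. These relative values were not tested.

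Kap averaged 6717 CPM in CKD523 and 2901 CPM in CKD627 in the negative libraries, and 594 and 466 CPM in the positive ones. In the positive libraries alone the prefix difference of Kap (-0.36, adjusted p = 0.651), Slc7a13 (-1.42, adjusted p = 0.110) and Cyp2e1 (-0.69, adjusted p = 0.307) did not pass. With all 8 libraries and the Tomato group as a covariate Kap did not pass either (-0.78, adjusted p = 0.112).

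Whether the Tomato difference itself differed between prefixes was tested with the identifier as a block (CKD627 minus CKD523). Over all genes 0.14% were called. None of the 8 genes with an estimate was called by edgeR's quasi-likelihood test or by DESeq2 with the block. All 8 edgeR estimates were positive, that of Slco1a1 turning to -0.0505 with library totals and to -1.18 in DESeq2. Of the 8, 5 had an unadjusted p under 0.05, as did 1974 of all 14284 genes tested. The sign was shared by proximal genes at large. All 19 early genes and 21 of 23 other late genes had positive estimates, against 7233 of the 14284. Their medians were 0.94 and 0.84, and that of the 8 genes was 0.59. The estimates were 0.86 for Kap (95% bounds 0.02 and 1.70, adjusted p = 0.350), 0.96 for Slc7a13 (0.34 and 1.57, adjusted p = 0.183), 0.84 for Cyp2e1 (adjusted p = 0.245), 0.63 for Akr1c21 (adjusted p = 0.287) and 0.55 for Napsa (adjusted p = 0.328). They were small beside their error for Acsm3 (0.23, adjusted p = 0.909), Cyp7b1 (0.19, adjusted p = 0.895) and Slco1a1 (0.05, adjusted p = 0.993). Slc22a7 has no estimate because its positive libraries were all at 0.

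With 1 identifier left out, a prefix holds a single pair, which is assumed to vary like the pairs of the other prefix, so the values that follow show how the estimates moved and are no firm calls. Without CKD627_1 the estimate was 1.45 for Kap, 1.26 for Cyp2e1 and 0.88 for Akr1c21. Without CKD627_2 it was 1.00 for Slc7a13 and, with the opposite sign, -6.11 for Slco1a1. That value for Slco1a1 rests on pair CKD627_1, whose positive library held 0 counts. In 7 of the 8 genes that were lower in the positive cells the difference was smallest in pair CKD627_2, and the difference of Cyp7b1 was largest there.

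Profiles over the 8 libraries were compared by the mean absolute difference of log2 CPM after centring each gene, among 11281 tested genes with a mean of at least 5 CPM. The 5 nearest to Kap were Acsm3 (0.25), Akr1c14 (0.30), Mogat1 (0.40), Slc7a13 (0.47) and Fst (0.50), with Napsa at rank 7 (0.54). Of these, Acsm3 and Slc7a13 are among the 9 genes, but the Tomato difference that chose the 9 also shapes this measure, so their nearness to Kap is a description and no finding. Akr1c14 is a hydroxysteroid dehydrogenase, Mogat1 an acyltransferase of lipid synthesis and Fst the activin-binding protein follistatin. Cyp2e1, Slco1a1 and Akr1c21 stood at ranks 46, 38 and 69, and Cyp7b1 at rank 11049. Nearest to Cyp7b1 were Tspan1 (0.21), Cav2 (0.25), Ltbp2 (0.26), Samd14 (0.26) and Rec8 (0.29), none of them a proximal gene of the lists used here. All 8 libraries enter both measures, so depth and cell makeup are common to the genes compared.

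Relatives of the 9 genes in the same families were examined, since near-identical copies such as those of the Akr1c and Slco1a clusters may share reads and no source used here says how such reads were counted. Of 24 relatives 16 were tested, 0 were called without pairing (5 at an unadjusted p under 0.05; DESeq2 called 3 lower, limma-voom 0), and 4 were called lower with the block. The 4 calls became 2 without pair CKD523_3 and 8 in DESeq2 with the block. The 4 were Akr1c14 (fell by 2.86 ± 0.41, adjusted p = 0.00639; 0.0618 without pairing) and Slc22a19, Slc22a6 and Slc22a12, given above. Akr1c14 held 262, 547, 85 and 172 counts in the negative and 14, 61, 24 and 48 counts in the positive libraries. Values of Akr1c21 and Slco1a1 carry this uncertainty.

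Among genes known to steer the proximal programme, the nuclear receptor gene Hnf4a held 702, 742, 91.5 and 190 CPM in the negative and 452, 418, 183 and 230 CPM in the positive libraries. It was lower in the positive library of both CKD523 pairs and higher in that of both CKD627 pairs, and did not pass with the block (-0.06 ± 0.28, adjusted p = 0.927, edgeR's quasi-likelihood test). The hormone receptor genes Ghr (-0.78, adjusted p = 0.129), Prlr (-0.85, adjusted p = 0.179) and Esr1 (-1.08, adjusted p = 0.247) did not pass with it either. Between prefixes Hnf4a fell by 1.76 in CKD627 (adjusted p = 1.26e-04).

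Because several of the 9 genes depend on sex in the mouse, sex-linked genes were read in every library. The Y-linked gene Ddx3y held 794 to 1465 counts in each of the 8 libraries, and Xist 0 to 14 counts. All 8 libraries thus show the pattern of male cells. The Y-linked genes Kdm5d (0.40, adjusted p = 0.271), Ddx3y (0.30, adjusted p = 0.229), Uty (0.12, adjusted p = 0.736) and Eif2s3y (-0.08, adjusted p = 0.758) did not pass with the block. Of 9 other genes more active in male mouse kidney, 0 were called without pairing (3 at an unadjusted p under 0.05; DESeq2 called 1 and limma-voom 0) and 4 were called lower with the block. Over all genes tested, 3.81% were called lower with the block. The 4 were Slc22a12, given above, the fatty acid hydroxylase gene Cyp4a12a (fell by 1.16 ± 0.18, adjusted p = 0.00959), the cytochrome P450 gene Cyp2j13 (fell by 0.92 ± 0.20, adjusted p = 0.0299) and Cyp4b1 (fell by 1.05 ± 0.20, adjusted p = 0.0182). Slc22a12 is also among the early genes called above and Cyp4b1 among the other late genes called, so the lists overlap. Without pair CKD523_3 the 4 calls became 0, and without CKD523_2 they became 2.

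Of 5 genes more active in female mouse kidney 4 were tested, and the fatty acid hydroxylase gene Cyp4a14 fell in both fits. It held 264, 225, 80.2 and 109 CPM in the negative and 29.9, 26.3, 37.5 and 35.1 CPM in the positive libraries (-2.40, adjusted p = 0.0407 without pairing; -2.24 ± 0.35, adjusted p = 0.00914 with the block). Slc7a12 (-2.18, adjusted p = 0.194), Prlr and Abcc3 (0.64, adjusted p = 0.175) did not pass with the block. Cyp4a14 was thus the only gene of this list called in either fit, and Abcc3 was higher in 3 of 4 pairs. The part of sex-dependent regulation in these differences was not tested.

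Finally, of 12 genes that injured proximal tubule cells are known to switch on, 0 were called without pairing (5 at an unadjusted p under 0.05; DESeq2 called 2 higher and limma-voom 0) and 3 were called higher with the block. Vcam1, an adhesion molecule, rose by 0.99 ± 0.23 (adjusted p = 0.0386; 0.0888 without pairing). Sox4 rose by 0.76 ± 0.15 (adjusted p = 0.0218; 0.0790 without pairing), and Sox9, another transcription factor gene, named after its values were seen, by 0.72 ± 0.13 (adjusted p = 0.0159; 0.280 without pairing). Lcn2, which encodes the injury protein lipocalin (0.96, adjusted p = 0.0597), and the keratin gene Krt20 (0.98, adjusted p = 0.0732) were higher in 4 of 4 pairs but did not pass. Havcr1, the kidney injury molecule of the proximal tubule (-0.08, adjusted p = 0.761, higher in 2 of 4 pairs), and Spp1, osteopontin (-0.35, adjusted p = 0.248, lower in 3 of 4 pairs), both named after their values were seen, did not pass either and are the 2 of the 12 with a negative difference. The 3 calls became 0 without pair CKD523_2 or without CKD523_3, and 5 in DESeq2 with the block. The principal cell markers were higher in the same 4 positive libraries.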

How the data were processed

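RNA of 8 libraries from kidney cells was sequenced after total RNA was taken up with a single-cell kit and made into libraries with a NEBNext kit, per the labels' protocols. Raw counts per gene symbol were deposited by the authors. Alignment was with Subread, per the file headers; the submitters' processing notes name mm10, edgeR 3.32.1 and limma 3.46.0. Counter, annotation, strand setting and treatment of multiple matches were not given in the sources used here. All 8 sample columns were used, and 0 were left over. Counts of libraries within a group differed beyond sampling error (chi-square over its degrees of freedom 15.5 to 191), so each counted as 1 sample.

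Genes were kept with filterByExpr (minimum count 10, total 15), 14284 for the Tomato comparison and 15398 for the prefixes. Groups were compared with edgeR 4.0.16 (R 4.3.3; TMM, quasi-likelihood test, two-sided, Benjamini-Hochberg over all genes tested, threshold 0.05), without pairing as the set design and with the identifier as a block beside it. An adjusted p in the text comes from these fits. With group means removed, the 2 libraries of an identifier had correlations over genes of 0.46, 0.32, 0.33 and 0.47, all over 0.1, so the pairing was kept; against the prefix's other identifier they were 0.34, 0.42, 0.30 and 0.47. The scripts were tested on simulated counts. Alternatives used DESeq2 1.42.0, limma-voom 3.58.1, other scaling, no filter, and leaving out libraries or pairs.

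The 9 genes and all lists were chosen with earlier results of these data known. Named were the 9 genes, from each list up to 4 genes with the smallest p without pairing, all sex-linked genes, Slc3a1, Hnf4a, and the 5 genes nearest in profile to Kap and to Cyp7b1 (predicted genes skipped); some genes that meet this rule are not reported here; cell type markers are given as sums. Positions came from GENCODE M21 (mm10) and promoters from RefSeq (GRCm38.p6); protein sequences were not used here. Since reads carry no molecular identifiers and can be copies of a molecule, floors cover counting error only.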

Additional observations from a re-analysis of the deposited data

Results flagged for a closer look

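One negative library stood apart for Slc22a7: CKD627_2 held 13 counts against 40, 51 and 47 in the others, and its gap to the nearest library on the log2 scale was 0.87 of the group's range, above Dixon's 95% critical value for 4 samples. Of 18 groups 1 passed, and chance alone passes about 1 in 20. The positive group of Slc22a7, among these 18, could not be examined because all its libraries held 0 counts.

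The Tomato difference differed between the prefixes, by the test of the difference itself with the identifier as a block in edgeR, for 4 genes of the lists, all named after their values were seen. In the early proximal list the endocytic receptor genes Lrp2 (1.58, adjusted p = 0.0470) and Cubn (1.58, adjusted p = 0.0475) and the lactate transporter gene Slc5a12 (1.47, adjusted p = 0.0475) had a more positive difference in CKD627 than in CKD523. The pair differences of Lrp2 were -0.93 and -0.81 in CKD523 and 0.86 and 0.55 in CKD627, those of Cubn averaged -0.88 and 0.70, and those of Slc5a12 -0.16, -0.08, 1.44 and 1.26. Cyp4a14, lower in all 4 pairs, was lower by less in CKD627 (1.75, adjusted p = 0.0483).

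The mean log2 CPM of the 19 early genes was lower in the positive library of both CKD523 pairs and higher in that of both CKD627 pairs, so that the 2 prefixes differed by 1.00; this difference was not tested.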

How the results depend on the processing

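The direction of each of the 9 genes between Tomato groups was the same under every alternative run: other scaling, a prior count of 0.5, the fitted values, each prefix alone and each pair left out. A size was said to move when it lay more than the SD of the 4 pairs from their mean. Only that of Slc22a7 did, since its positive libraries were all at 0. It was -6.16 with a prior count of 0.5. The edgeR fits without and with the replicate block gave -8.32 and -8.23. With 4 pairs, leaving out 1 pair or taking 1 prefix alone cannot reach that limit. By prefix, the mean of Kap was -3.60 in CKD523 and -2.74 in CKD627, and that of Slco1a1 -3.82 and -4.24. The count of 85 genes called without pairing moved to 1089 with the replicate block, 1527 with the prefix as a covariate, 45 without a filter, 998 in DESeq2, 2024 in DESeq2 with the block, and 6 to 26 with 1 library left out; with the block it ranged from 203 to 1319 with 1 pair left out. The 0 other late genes called became 14 with the block or the prefix as a covariate, 8 in DESeq2 and 16 in DESeq2 with the block, and with the block ranged from 5 to 16 with 1 pair left out. For the early genes, 0 became 3 with the block or the covariate, 2 in DESeq2 and 5 in DESeq2 with the block, and 2 to 4 with 1 pair left out of the block fit. The count of genes differing between prefixes was 3351, and 1890 in a separate fit of the positive libraries alone. The prefix difference of Slco1a1 ranged from -1.28 to 0.0753 with 1 identifier left out. The 20 genes whose Tomato difference differed between prefixes became 2 without the block, 0 with library totals, 399 in DESeq2 with the block, 447 without a filter and 0 to 2732 with 1 identifier left out. That difference turned for Slco1a1 with library totals (-0.0505) and in DESeq2 with the block (-1.18). With 1 identifier left out it ranged from -6.11 to 1.24 for Slco1a1, from -0.78 to 1.07 for Acsm3 and from -0.36 to 0.74 for Cyp7b1. The -6.11 of Slco1a1 rests on pair CKD627_1, whose positive library held 0 counts. Leaving out 1 identifier leaves a prefix with a single one, assumed to vary like those of the other prefix. The cause of these moves was not tested. The counts of the male, injury and relatives lists under left-out pairs were alternatives chosen after seeing the data. Depth limits Slc22a7, Slco1a1 and Acsm3, which had 0 to 58 counts in the positive libraries.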
